A study of Bos taurus with 30 samples.

Results

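ICM-only sites were regions of accessible chromatin in the inner cell mass (ICM) of bovine blastocysts that had no counterpart in the other control stages of the series. A region of a stage was a stretch made by merging the overlapping ATAC-seq peaks of its 3 replicates, kept where peaks of 2 or more replicates contributed. An ICM region was ICM-only when it shared not even 1 bp with a region of GV oocytes, 2-cell, 4-cell or 8-cell embryos, morula or embryonic stem cells (ESC). This rule left 11067 of 84396 ICM regions, or 13.1% (exact 95% binomial interval 12.9 to 13.3, which covers counting error only), and the control stages together held 250139 merged regions. These sites were thus chosen by the presence or absence of peaks in the 21 control libraries, and their peaks, fold enrichment and length in those libraries are given as a description. Tests were run only on redefined sites, each set read in libraries left out of its own definition.

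The ICM is the cluster of cells inside the blastocyst that gives rise to the epiblast, the source of the fetus, and to the hypoblast, which lines the yolk sac. The outer layer, the trophectoderm, forms the fetal part of the placenta. ATAC-seq marks DNA that is open to a transposase, and open stretches far from promoters often act as enhancers that differ between cell types.

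All oocytes and embryos were bovine, and embryos were produced in vitro with thawed semen of a Holstein bull. Libraries came from pools of at least 500 cells, with 3 replicates from separate collections per embryonic stage. GV oocytes were taken before maturation, 2-cell embryos at 30 to 32 h after insemination, and 4-cell embryos, 8-cell embryos and morulae at 2, 3 and 5 days. ICM were freed from blastocysts of day 7 by immunosurgery, in which antiserum and complement lyse the outer cells, followed by brief trypsin treatment. These were the control groups, with no inhibitor. A further 9 libraries came from 2-cell, 4-cell and 8-cell embryos grown with 50 μg/ml α-amanitin, which blocks RNA polymerase II, and are called transcription-blocked embryos (TBE). They came from the same collections as control embryos of their stage and were cultured alongside them, though no source used here ties a replicate number to a collection. The ESC were CTFR-bESC, cell lines that had been derived from ICM and were grown on irradiated mouse feeder cells with FGF2 and the Wnt-pathway inhibitor IWR-1. The sources used here do not say how the 3 ESC replicates relate to separate lines or cultures, so the spread between them may be technical. An ICM library mixes the precursors of epiblast and hypoblast, and cells that survive immunosurgery from the outer layer would be counted with them. Marker genes of these cells were not analysed here, so the ICM label was not checked against them.

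The ICM libraries differed in depth. Replicates 1, 2 and 3 held 84773, 93484 and 116791 peaks over 42.8, 45.4 and 65.2 Mb. Depth was read from the background level, the number of tags that the peak caller expected over a position by chance, which scales with the number of tags in a library. It was 0.493, 0.438 and 1.06 in ICM replicates 1, 2 and 3, so that replicate 3 was the deepest. Of the other stages, morula replicate 2 (0.927) was the deepest morula library and held 207459 peaks, against 142231 and 171670 in morula replicates 1 and 3. ESC lists held 39333, 142643 and 99432 peaks, 8-cell lists 125253, 128958 and 156569, GV oocyte lists 40132, 42596 and 44678, and 4-cell lists 42012, 22983 and 14355. The 2-cell lists were far shorter, with 1002, 1262 and 6440 peaks, so that this stage could remove few ICM regions.

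Most of the ICM regions that were removed overlapped morula. Morula regions met 69254 ICM regions (82.1%), 8-cell regions 43408 (51.4%), ESC regions 33944 (40.2%), GV oocyte regions 21035 (24.9%), 4-cell regions 12282 (14.6%) and 2-cell regions 632 (0.749%). After removal of regions shared with morula 15142 were left, and 8-cell embryos took this to 13937, ESC to 11579 and GV oocytes to 11137. The 4-cell and 2-cell stages then removed few more. Morula was also the stage that most often stood alone against an ICM-only call: 19075 ICM regions (22.6%) were shared with morula and no other stage, against 2052 (2.43%) shared with ESC and no other stage. The same rule applied to morula left 44199 of 161497 regions (27.4%), and applied to ESC it left 30430 of 78943 (38.5%). The ICM thus had the smallest share of its own regions among these 3 stages, and the part that depth and list length play in these shares was not tested. With equal numbers of the strongest peaks in 8-cell, morula, ICM and ESC lists, 9576 of 36211 ICM regions (26.4%) were ICM-only.

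**Figure D1:**
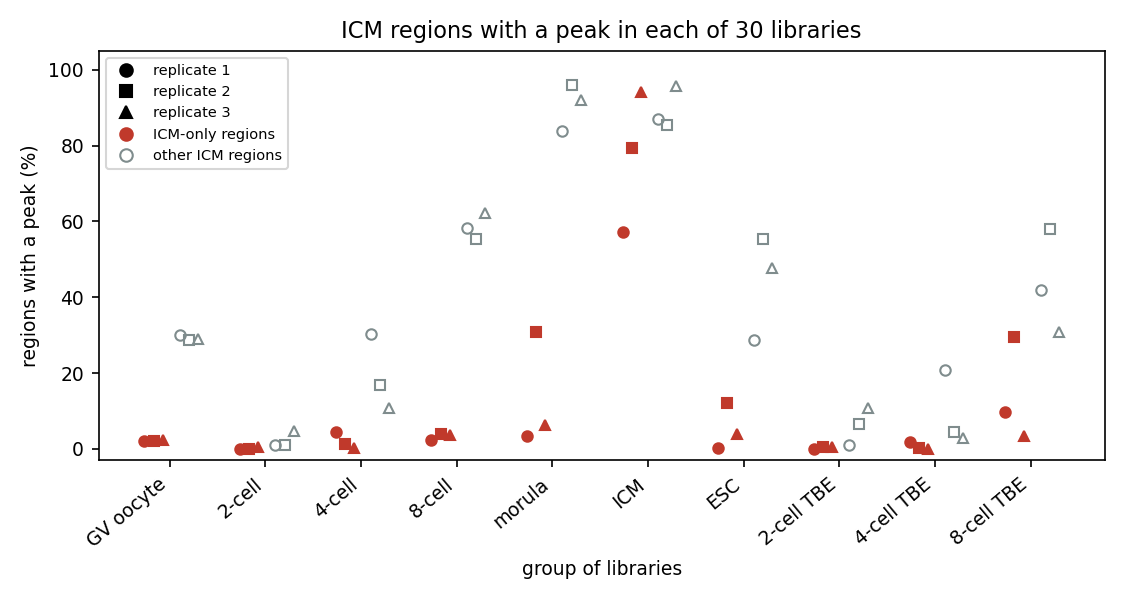
Percent of ICM-only regions (filled) and of the other ICM regions (open) with a peak in each of the 30 libraries, with a symbol for each replicate of a group. ICM-only regions had a peak in 57.2 to 94.1% of cases in ICM libraries, and outside ICM their largest shares were in morula replicate 2 (30.7%) and 8-cell TBE replicate 2 (29.5%).

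ICM-only regions rested unevenly on the 3 ICM libraries. A peak was present at 6325 of them (57.2%) in ICM replicate 1, 8794 (79.5%) in replicate 2 and 10417 (94.1%) in replicate 3. The other 73329 ICM regions had a peak in 86.9%, 85.4% and 95.6% of cases. Support by replicates 2 and 3 without replicate 1 was the most common pattern among ICM-only regions, with 4742 (42.8%). Another 3402 (30.7%) had peaks in all 3 libraries, 2273 (20.5%) in replicates 1 and 3, and 650 (5.87%) in replicates 1 and 2. Among the other ICM regions 67.9% had peaks in all 3 libraries and 13.1% in replicates 2 and 3 alone. Of morula-only and ESC-only regions 46.0% and 28.5% had peaks in all 3 libraries of their own stage. Without ICM replicate 3, where a region needs peaks of both other ICM libraries, the number of ICM-only regions was 4075, and it was 5683 without ICM replicate 2 and 8160 without ICM replicate 1. Without morula replicate 2 it was 15941, and without ESC replicate 2 it was 12284.

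The fold enrichment of a peak, its mean tag pileup over that of the local background, was lower at ICM-only regions. Its median over ICM-only regions with a peak was 3.97 in ICM replicate 1 (quartiles 3.48 and 4.58), 3.69 in replicate 2 (3.22 and 4.34) and 4.01 in replicate 3 (3.39 and 4.91). The other ICM regions had medians of 4.65, 4.31 and 4.54 in the same libraries. The distributions overlapped widely, and the highest peaks at ICM-only regions reached 8.59, 9.60 and 11.4 against 19.1, 18.8 and 18.4 at the other regions. The median −log10 q at ICM-only regions was 2.85, 2.27 and 3.68, against 4.29, 3.44 and 5.46 at the others. Morula-only regions had a fold as low. The mean fold over the libraries of a region's own stage had a median of 3.90 at ICM-only and 3.91 at morula-only regions. It was 4.27 at ESC-only and 4.45 at the other ICM regions.

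**Figure D2:**
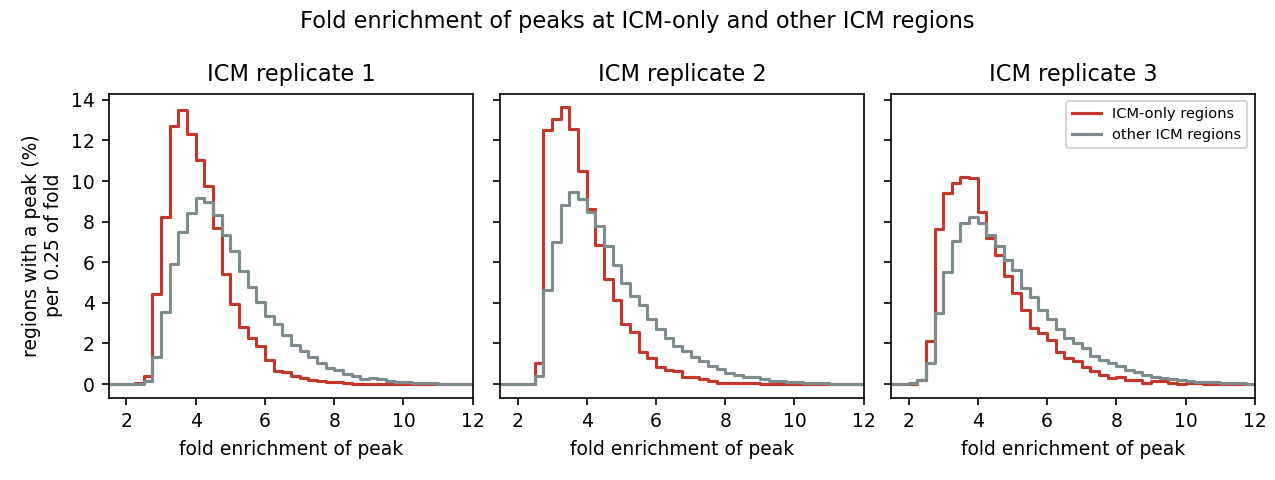
Percent of ICM-only and other ICM regions with a peak, in steps of fold enrichment, in each ICM library. In all 3 libraries the ICM-only regions lie to the left, with medians of 3.97, 3.69 and 4.01 against 4.65, 4.31 and 4.54.

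Under the 1 bp rule, ICM-only regions were also short. Their median length was 449 bp (quartiles 319 and 769, longest 2889 bp), against 630 bp for the other ICM regions, and together they covered 6.44 Mb. This order turned when a region counted as shared only with 50% of its length covered: ICM-only regions then had a median of 648 bp and the others of 592 bp. Morula-only and ESC-only regions were of similar length, with medians of 436 and 425 bp. The ICM-only share of ICM regions fell with length, from 19.4% of those under 300 bp to 12.1% at 500 to 1000 bp and 1.96% at 2000 bp or more. It fell more steeply with fold enrichment, from 33.2% of the ICM regions with a mean fold under 3 to 12.2% at 4 to 5 and 0.759% at 8 or more, where 12 of 1580 were ICM-only. Of the ICM regions with peaks in 2 replicates 24.6% were ICM-only, and of those with peaks in 3 replicates 6.39%. The strongest ICM regions were thus nearly all shared with another stage.

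**Figure D3:**
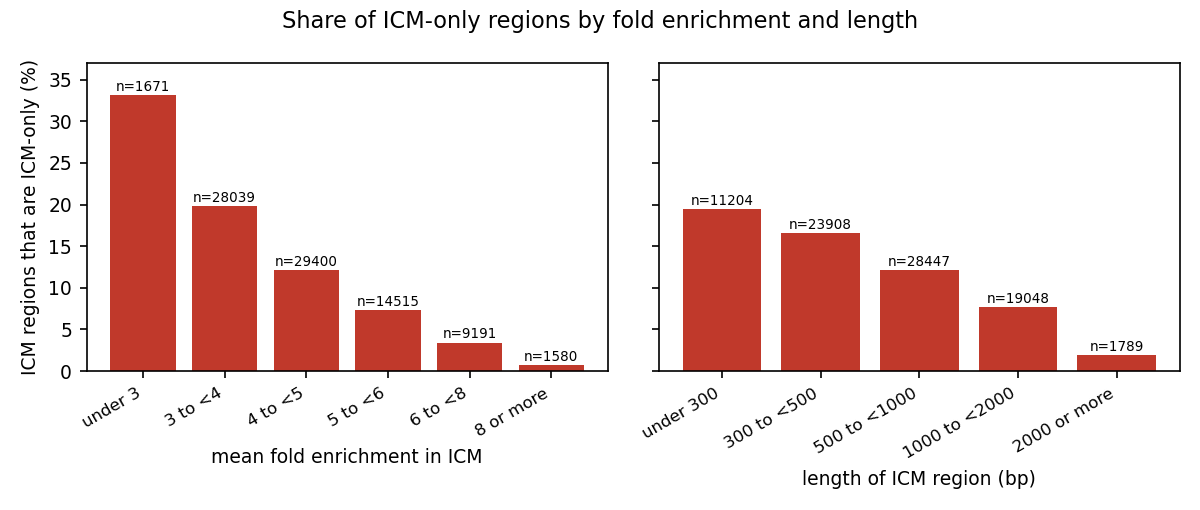
Percent of ICM regions that were ICM-only, by mean fold enrichment over the ICM libraries with a peak (left) and by length (right), with the number of ICM regions above each bar. The share ran from 33.2% to 0.759% over the classes of fold enrichment and from 19.4% to 1.96% over those of length.

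The rule lets an ICM-only region carry a peak in a single replicate of another stage. It also lets it carry peaks of 2 or more replicates that lie apart from one another within it, which was rare (39 regions for morula, 16 for ESC, 12 for 8-cell embryos, 8 for GV oocytes and 7 for 4-cell embryos). In morula replicates 1, 2 and 3 a peak was present at 363 (3.28%), 3396 (30.7%) and 696 (6.29%) ICM-only regions, so that the deepest morula library held most of them. Over all ICM regions the shares in these libraries were 73.2%, 87.4% and 80.8%. ESC replicates 1, 2 and 3 had peaks at 28 (0.253%), 1336 (12.1%) and 425 (3.84%), against 24.9%, 49.6% and 41.9% of all ICM regions, and here too the library with the most peaks stood highest. Shares were 2.26%, 3.83% and 3.67% in 8-cell embryos, against 50.9%, 48.5% and 54.5% of all ICM regions. In GV oocytes they were 1.98%, 1.98% and 2.34%, against 26.4%, 25.1% and 25.4%. In 4-cell embryos they were 4.39%, 1.21% and 0.343%, against 26.97%, 14.8% and 9.45%, and in 2-cell embryos 0.0361%, 0.0452% and 0.425%, against 0.820%, 0.955% and 4.06%. Peaks outside ICM were thus far rarer at ICM-only regions than over all ICM regions, as the rule requires, and among control stages were most common in morula. Counted by stage, 4416 ICM-only regions (39.9%) had a peak in at least 1 morula library, 1773 (16.0%) in ESC, 1068 (9.65%) in 8-cell embryos, 689 (6.23%) in GV oocytes and 651 (5.88%) in 4-cell embryos. Shares by stage were not counted over all ICM regions. They cannot be below the highest share of a single library of the stage given above, which for morula was 87.4%.

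Peaks outside ICM were weaker at ICM-only regions than at other ICM regions. The rule had dropped every ICM region that met a region of another stage, and its part in this was not tested. In morula replicates 1, 2 and 3 the median fold was 3.34, 3.46 and 3.50 at ICM-only regions, against 4.97, 5.22 and 5.03 at other ICM regions. In ESC replicates 2 and 3 the medians were 3.61 and 3.21 against 4.76 and 4.55. In some libraries the median was close to the ICM fold of the same ICM-only regions. It was 3.61, 3.53 and 3.49 in 4-cell replicates 1, 2 and 3, against 3.82, 3.58 and 3.51 in ICM. GV oocyte replicates 1, 2 and 3 had 3.55, 3.55 and 3.47 against 3.67, 3.67 and 3.93. The gap was wider in 8-cell replicates 1, 2 and 3, at 3.02, 3.14 and 3.30 against 3.62, 4.01 and 3.87. In ICM the fold of the same regions did not stand out: those with a peak in morula replicate 2 had a median ICM fold of 4.00. Their support in ICM was wider: 40.3% of ICM-only regions with a peak in 1 morula library had peaks in all 3 ICM libraries, against 30.7% of all ICM-only regions.

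Just inside the rule were 4377 ICM-only regions with a peak in 1 morula library, and just outside it were 5082 ICM regions shared with morula alone through 2 morula libraries. The former had a median length of 473 bp, a median ICM fold of 3.98 and a median morula fold of 3.45, and 40.3% had peaks in all 3 ICM libraries. The latter had 484 bp, an ICM fold of 4.03 and a morula fold of 3.86, and 46.1% had peaks in all 3 ICM libraries. The regions on both sides of the rule were thus much alike in ICM. The 13765 ICM regions shared with morula alone through 3 morula libraries were longer (541 bp) and stronger, with an ICM fold of 4.35 and a morula fold of 4.76.

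Away from that margin, 4915 ICM-only regions (44.4%) had no peak in any of the 18 other control libraries. Their median length was 411 bp and their median ICM fold 3.87, and 23.8% of them had peaks in all 3 ICM libraries. A single other control library had a peak at 4191 ICM-only regions (37.9%), 2 had one at 1461 (13.2%) and 3 at 395 (3.57%), and the highest number was 6 libraries, at 3 regions. With the TBE libraries added, 3731 (33.7%) had no peak in any of 27 libraries. Such absence was not particular to ICM-only regions. Of morula-only and ESC-only regions 45.4% and 66.0% had no peak in the control libraries of stages other than their own. With the TBE libraries added these shares were 35.4% and 48.3%. The ICM-only regions that met both demands, a peak in all 3 ICM libraries and none in the other 27, numbered 885 (8.00%). Their mean ICM fold had a median of 4.37 and ran from 2.91 to 8.32, against a median of 3.90 over all ICM-only regions.

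Among those 885 regions, the 10 with the largest mean fold lay on 8 chromosomes, with coordinates on ARS-UCD1.2. At chr14:48242762-48243165 the fold enrichment was 7.06, 9.31 and 8.58 in ICM replicates 1, 2 and 3, with a mean of 8.32 ± 1.15 (SD, n = 3). At chr6:11964090-11964508 it was 6.93, 7.21 and 10.4 (8.19 ± 1.95), and at chr9:76591637-76592059 it was 7.31, 8.35 and 8.05 (7.90 ± 0.535). All 3 were compact, at 404, 419 and 423 bp, and the nearest morula region lay 7633, 3346 and 13242 bp away. At chr7:107895235-107895582 the values were 6.25, 7.38 and 10.0 (mean 7.89), and at chrX:78387612-78388226 they were 5.34, 6.90 and 9.97 (mean 7.40). At chr21:6415763-6416147 the folds were 6.68, 7.03 and 8.10 (mean 7.27), and 1274 bp separated this region from the nearest morula region. Replicate 1 was lowest at all 6 of these regions, and replicate 2 was highest on chromosomes 14 and 9 and replicate 3 at the other 4.

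The other 4 named regions had means from 6.74 to 7.27. ICM replicates 1, 2 and 3 gave folds of 4.48, 8.60 and 8.73 at chr7:40519973-40520433, and of 6.91, 6.96 and 7.56 at chr1:114385686-114386097. They gave 5.96, 6.73 and 8.26 at chr26:33591041-33591463, and 4.34, 6.84 and 9.04 at chr14:55244411-55244989. The region on chromosome 1 varied least between replicates (SD 0.363) and that on chr7:40519973-40520433 most (SD 2.42). By the rule that named them, no library outside ICM had a peak at any of the 10, which says that none passed the authors' threshold there and not that the DNA was closed. Genes and sequence at these positions were not analysed here.

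Some ICM-only regions with peaks elsewhere were stronger still. The largest mean ICM fold of all ICM-only regions was at chr1:82218996-82219378, a region picked after its values were seen. Its fold was 8.05, 9.60 and 11.1 in ICM replicates 1, 2 and 3, and it had weaker peaks in 4-cell replicate 1 (3.72), morula replicate 3 (4.21), ESC replicate 2 (4.04) and 8-cell TBE replicate 2 (3.08). In each of those stages a single replicate had the peak, so that the region passed the rule while being open, at a lower fold, in 4 other libraries.

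To ask whether ICM-only regions recur in libraries that did not choose them, the sites were redefined 3 times without replicate 1, 2 or 3 of every stage, and peaks were then counted in the replicate left out. The redefined sets held 9699, 11126 and 7531 regions. In the held-out ICM library 43.9%, 62.6% and 85.6% of them had a peak (64.0% ± 20.9, SD, n = 3). Recurrence in ICM thus differed widely between replicates, lowest in replicate 1 and highest in the deepest library, replicate 3.

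The held-out morula libraries had peaks at 14.2%, 63.5% and 41.1% of the redefined regions (39.6% ± 24.7, n = 3). ICM was 24.4 percentage points higher on average, but the groups overlapped, and in replicate 2 the morula share exceeded the ICM share (two-sided exact permutation test, p = 0.3, adjusted p = 0.3 over the 6 stages). The difference between ICM and morula was thus about as large as the SDs of their shares (20.9 and 24.7 points). Without replicate 2 it was 37.1 points, and without replicate 3 it was 14.4 points. The groups separated under another choice of peaks: with the 39333 strongest peaks kept in every 8-cell, morula, ICM and ESC list, 58.5%, 75.9% and 75.3% recurred in ICM and 18.2%, 29.5% and 21.7% in morula, and the groups did not overlap (exact permutation p = 0.1). That choice changes list length, peak strength and the redefined regions together, and their parts were not tested.

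For the other stages the held-out shares stayed below every ICM value. ESC libraries had peaks at 1.32%, 25.4% and 15.5% of the redefined regions (14.1% ± 12.1), and 8-cell libraries at 4.54%, 8.52% and 10.2% (7.76% ± 2.91). GV oocytes had 3.25%, 5.48% and 4.93% (4.55% ± 1.16), 4-cell embryos 5.11%, 2.48% and 1.02% (2.87% ± 2.07), and 2-cell embryos 0.0928%, 0.0629% and 0.558% (0.238% ± 0.277). ICM stood higher in all 3 replicates against each of these 5 stages, by 50.0 points over ESC, 56.3 over 8-cell embryos, 59.5 over GV oocytes, 61.2 over 4-cell embryos and 63.8 over 2-cell embryos. This was not particular to ICM-only regions. At the other ICM regions of the same redefinitions, ICM libraries had peaks in 84.6%, 84.0% and 94.4% of cases. ESC libraries had 32.5%, 59.6% and 52.4% there, 8-cell libraries 61.5%, 62.8% and 69.6%, and GV oocytes 32.8%, 34.7% and 35.2%. In 4-cell embryos the shares were 33.4%, 20.8% and 14.1%, and in 2-cell embryos 1.08%, 1.34% and 6.06%. Morula libraries had 86.1%, 98.1% and 96.0%, above ICM in each replicate. Each exact permutation test gave p = 0.1 (adjusted p = 0.12), and 0.1 is the smallest p that 3 against 3 libraries allow. The 2-cell lists of replicates 1 and 2 held 1002 and 1262 peaks, against 9699 and 11126 redefined regions. They were too short to reach the ICM shares, so the 2-cell test decides nothing. The redefined regions had been kept for having ICM peaks and overlapping no region that both other replicates of another stage made, so the comparison measures how well that choice carried over to a further replicate. Each held-out library also helped to choose the redefined regions read in the other replicates. The 3 shares of a stage are therefore not independent of the choice.

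**Figure D4:**
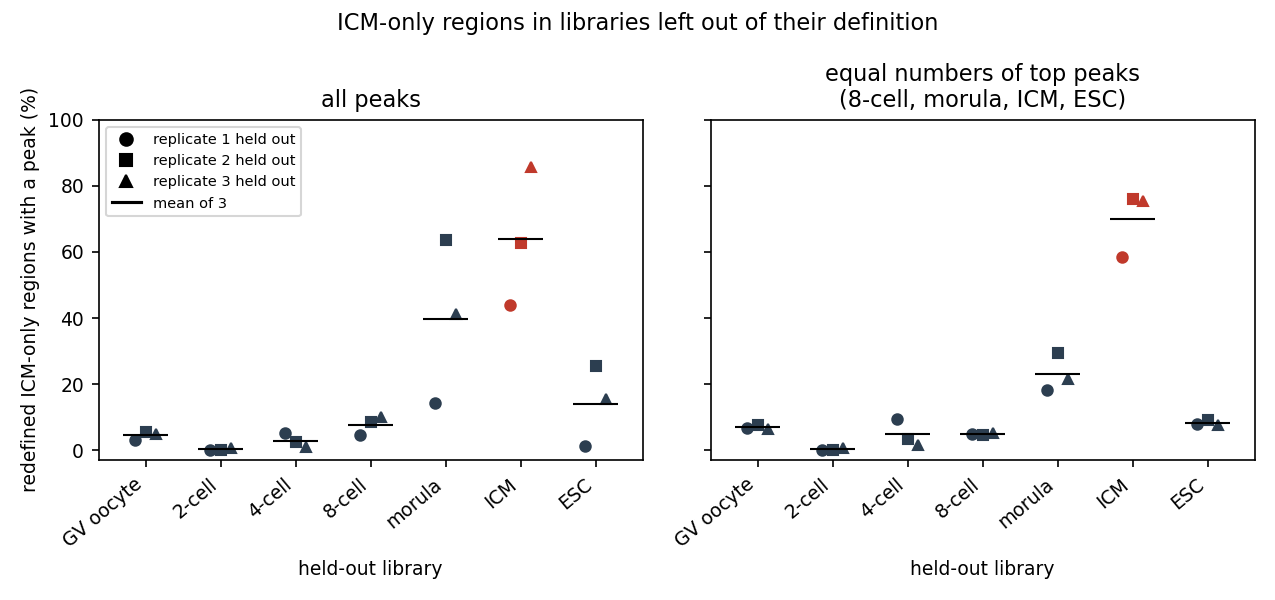
Percent of redefined ICM-only regions with a peak in the library left out of their definition, for each control stage, with all peaks (left) and with equal numbers of the strongest peaks in 8-cell, morula, ICM and ESC lists (right); lines are means of 3. With all peaks ICM (43.9 to 85.6%) and morula (14.2 to 63.5%) overlap, and with equal numbers ICM (58.5 to 75.9%) lies above morula (18.2 to 29.5%).

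ICM-only regions recurred less often in held-out ICM libraries than the remaining ICM regions of the same redefinition. These had a peak in 84.6%, 84.0% and 94.4% of cases, and the difference was −23.6 points, lower in 3 of 3 replicates. It was −15.1 points without replicate 1, −24.8 without replicate 2 and −31.0 without replicate 3. Both sets were read in the same 3 libraries, and the exact sign-flip test over these libraries gave p = 0.25, the smallest that 3 pairs allow (an exact permutation test that ignores the shared libraries gave p = 0.3). With equal numbers of the strongest peaks the ICM-only share was again lower in 3 of 3 libraries (ICM-only 58.5%, 75.9% and 75.3%, others 88.6%, 87.4% and 89.3%, exact sign-flip p = 0.25). As a description, regions of other stages chosen in the same way recurred at 77.4% ± 16.2 for morula-only, 71.0% ± 35.3 for ESC-only, 75.2% ± 11.1 for 8-cell-only and 55.7% ± 5.55 for GV-only regions, each in its own held-out libraries (n = 3). The ICM value of 64.0% lay within this range. The other regions of these stages recurred more often on average too, at 92.8% for morula, 82.6% for ESC, 91.1% for 8-cell embryos and 86.6% for GV oocytes. Lower recurrence was thus not particular to ICM-only regions.

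The embryos grown with α-amanitin ask whether ICM-only regions open in cleavage embryos whose transcription is blocked. Their libraries took no part in the rule, but the rule had removed the 43408 ICM regions that met a control 8-cell region, all of which are among the other ICM regions. A lower share of ICM-only regions in TBE embryos of the same stage was therefore partly built in, and the shares are given as a description. At the 8-cell stage 1135 ICM-only regions (10.3%) overlapped a TBE region, against 42.9% of the other ICM regions and 38.6% of all ICM regions. The share was close to that of morula-only (8.93%) and ESC-only regions (10.2%), so that it was not particular to ICM-only sites. With 2-cell TBE regions 1 ICM-only region overlapped (0.00904%), against 4.13% of the other ICM regions, 3.59% of all ICM regions, 0.0136% of morula-only and 0.00986% of ESC-only regions. With 4-cell TBE regions 5 overlapped (0.0452%), against 4.90% of the other ICM regions, 4.27% of all ICM regions, 0.0158% of morula-only and 0.0361% of ESC-only regions. All 3 of these single-stage sets had lost every region that met a control region of the same cleavage stages, so a low overlap with TBE embryos of those stages follows in part from the rule.

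The ICM-only regions within 8-cell TBE regions were longer, with a median of 619 bp against 435 bp for the other 9932, and had a slightly lower median ICM fold, at 3.59 against 3.94. Of them 26.4% had no peak in the other 18 control libraries, against 46.5% of those outside TBE regions. Peaks in all 3 ICM libraries were about as common, at 28.5% and 31.0%. ICM-only regions open in blocked 8-cell embryos were thus more often the ones with a peak in some other control library. They were also the longer ones, and the part of length was not tested.

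Counted by library, 3532 ICM-only regions (31.9%) had a peak in at least 1 of the 8-cell TBE libraries, 2561 of them in exactly 1. A peak was present at 9.65%, 29.5% and 3.48% of ICM-only regions in 8-cell TBE replicates 1, 2 and 3, whose background levels were 1.24, 3.82 and 0.347 and whose lists held 90890, 247513 and 50090 peaks. Over all ICM regions the shares were 37.6%, 54.4% and 27.2%. How many of all ICM regions had a peak in at least 1 of these libraries was not counted, but it cannot be below 54.4%. Morula-only regions had 8.42%, 26.5% and 3.29% and ESC-only regions 9.90%, 30.9% and 3.95% in the same libraries. The share was highest in the library with the highest background level in all of these sets, and the part of depth was not tested. The median fold of the peaks at ICM-only regions was 3.14, 2.43 and 3.43 in TBE replicates 1, 2 and 3.

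The redefined ICM-only regions also allow blocked embryos to be set beside held-out control embryos, but not on equal terms. These regions were kept for lacking regions in the other 2 control replicates of each stage, a choice that can lower the control share and in which TBE libraries took no part, so the choice of regions and the block cannot be told apart. On the redefined ICM-only regions, 8-cell TBE had peaks at 9.75%, 37.0% and 5.52% and control 8-cell embryos at 4.54%, 8.52% and 10.2%. The difference was 9.67 points, higher in 2 of 3 replicates (exact permutation p = 0.5, adjusted p = 0.75 over 3 stages), and it was 0.265 points without replicate 2 and 16.8 points without replicate 3. At the other ICM regions of the same redefinitions, 8-cell TBE had 43.6%, 62.9% and 36.0% against 61.5%, 62.8% and 69.6% in controls. TBE was thus clearly lower there in replicates 1 and 3 and about equal in replicate 2. The ICM-only difference was 0.391 points with peaks of a −log10 q of at least 3, and 16.5 points, with no overlap between the groups, when 8-cell, morula, ICM and ESC lists but not TBE lists were reduced to their 39333 strongest peaks (exact permutation p = 0.1). With peaks of a fold of at least 3 alone, TBE had 6.63%, 4.07% and 4.90% against 3.76%, 7.09% and 9.47%, so that the difference turned to −1.57 points. At the 4-cell stage TBE had 2.19%, 0.180% and 0.173% against 5.11%, 2.48% and 1.02% in controls, a difference of −2.03 points that was lower in 3 of 3 replicates while the groups overlapped (exact permutation p = 0.2, adjusted p = 0.6). The other ICM regions were lower too, with 23.1%, 5.58% and 3.82% in 4-cell TBE against 33.4%, 20.8% and 14.1% in controls. The 4-cell TBE lists held 32260, 4166 and 3094 peaks and the control lists 42012, 22983 and 14355, and the part of list length was not tested. At ICM-only regions the 4-cell difference was −0.795 points with peaks of a −log10 q of at least 3, −1.06 with peaks that covered 50% of a region, −0.712 with absence from every single peak of the remaining replicates and −3.28 with equal numbers of the strongest peaks. At the 2-cell stage the shares were 0.0309%, 0.575% and 0.584% against 0.0928%, 0.0629% and 0.558% (exact permutation p = 0.8, adjusted p = 0.8), and so near 0 in both groups that no difference was detectable. At the other ICM regions they were 1.22%, 8.39% and 14.4% in 2-cell TBE against 1.08%, 1.34% and 6.06% in controls.

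Distances were measured from ICM-only regions to the regions of the other control stages, with no distance by chance to set beside them. The median distance to the closest region of another control stage was 3346 bp, 1408 (12.7%) lay within 1 kb of one, and 1495 (13.5%) lay more than 10 kb away. For morula-only and ESC-only regions the medians were 4233 and 4852 bp, with 19.0% and 25.9% more than 10 kb away, but the regions measured to were not the same: those of morula, the most numerous, counted for ICM-only and ESC-only regions and not for morula-only regions. The nearest ICM region of any kind was 8470 bp from an ICM-only region and 8285 bp from another ICM region (medians). It was itself ICM-only in 16.0% of cases for ICM-only regions and in 12.8% for the others, against 13.1% over all ICM regions.

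ICM-only regions lay in most parts of the genome, and whether they were spread evenly was not tested. Of 5268 steps of 500 kb along the autosomes and X, 1084 (20.6%) held no ICM-only region, 2389 held 1 to 2, 1518 held 3 to 5 and 277 held 6 or more. The densest windows of 500 kb held 12 each. In chr4:30961102-31461101 these were 12 of 39 ICM regions, 5 of them with peaks in all 3 ICM libraries, and in chr11:25241423-25741422 they were 12 of 35, 6 of them with peaks in all 3. A second window on chromosome 11, chr11:67940875-68440874, held 12 of 44 ICM regions. The windows chr13:47411193-47911192 and chr15:39515850-40015849 held 12 of 33 and 12 of 34. ICM-only regions made up 27.3 to 36.4% of the ICM regions in these windows, which were picked for their count.

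Across autosomes the ICM-only share of ICM regions ran from 10.0% on chromosome 27 (124 of 1238, exact 95% binomial interval 8.40 to 11.8) to 15.7% on chromosome 20 (291 of 1851, 14.1 to 17.5), with a median of 13.4%. It was 15.5% on chromosome 16 and 15.3% on chromosome 12, and 10.9% on chromosome 18. The share tended to be lower on autosomes with more ICM regions per Mb (Pearson r = −0.475, Spearman rho = −0.403, n = 29 autosomes), and r was −0.334 without the 2 autosomes farthest from the median density. For morula-only regions the same r was −0.242, and −0.116 without the 2 farthest autosomes. For ESC-only regions it was −0.123, and 0.0489 without the 2 farthest. The 29 points share the same libraries and the ICM region count enters both axes, so no test was made. The binomial intervals of single chromosomes cover counting error only. Within neighbourhoods the share moved little: 13.3% of the ICM regions with no other inside 100 kb on either side were ICM-only (164 of 1235), 14.5% of those with 1 to 2 others and 11.9% of those with 11 or more.

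**Figure D5:**
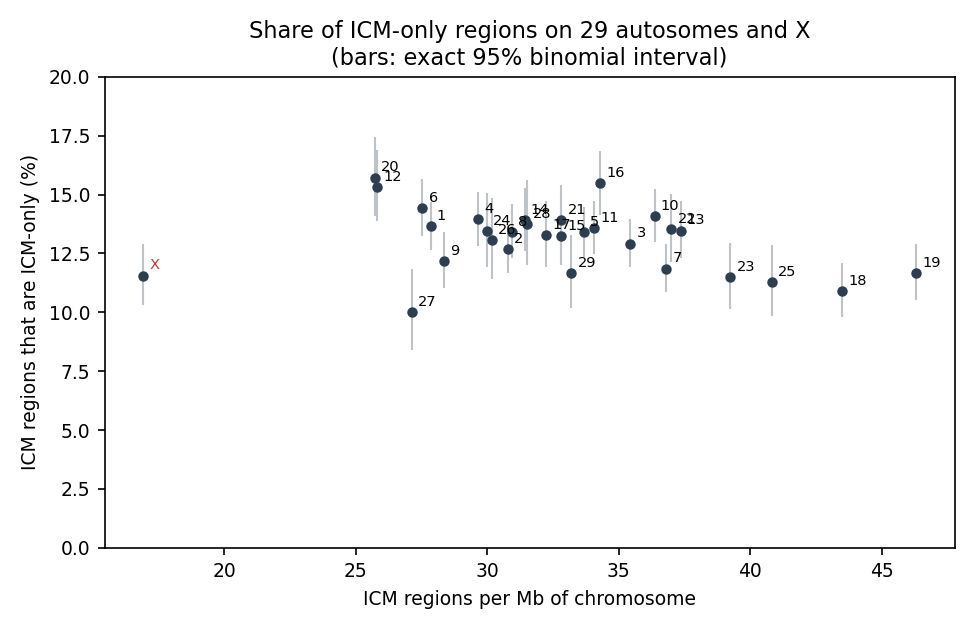
Percent of ICM regions that were ICM-only against the number of ICM regions per Mb, for 29 autosomes and X (chromosome names beside the points). Bars are exact 95% binomial intervals, which cover counting error only. Chromosome 20 was highest (15.7%), chromosome 27 lowest (10.0%), and X (11.6%) had the fewest ICM regions per Mb.

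On the X chromosome 272 of 2353 ICM regions (11.6%, exact 95% binomial interval 10.3 to 12.9) were ICM-only, against 10748 of 81365 (13.2%) on autosomes. The interval covers counting error only and not the spread between libraries, so X was not tested against autosomes. With equal numbers of the strongest peaks the order of X and autosomes turned, at 27.1% on X and 26.6% on autosomes. ESC-only regions were likewise somewhat less common on X (35.7% against 38.8%), while morula-only regions were more common there (32.7% against 27.2%). Toward chromosome ends the ICM-only share was 12.8% in the first 5 Mb of autosomes and 11.5% in the last 5 Mb, against 13.4% between them. Unplaced scaffolds held 47 ICM-only regions of 678 ICM regions (6.93%).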

How the data were processed

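Per the submitters' processing notes, reads were trimmed with Trim Galore and cutadapt 0.4.0, aligned to ARS-UCD1.2 with BWA 0.7.17, filtered with SAMtools 1.7 and piled into peaks with MACS2 2.1.1, and deepTools was also used. The authors called broad peaks separately in each of 30 libraries, at a q-value of 0.05. Each deposited list gives per peak a fold enrichment over local background (a ratio), a −log10 p and a −log10 q, each averaged over the peak, and a score, 10 times the −log10 q as a whole number, which was not used here.

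From these lists, peaks were merged on 1 bp and regions of a stage needed peaks of 2 replicates. The fold of a region in a library is that of its strongest overlapping peak. Background levels were solved from peaks whose fold and −log10 p matched a whole-number pileup within 0.0001, in 28 of 30 libraries (in 2-cell replicate 1 and 2-cell TBE replicate 1 too few peaks matched). Read totals were not used here, so depth is known only through list length and background level. Chromosome length was taken as the end of the last peak. Tests were two-sided exact permutation tests over libraries, with Benjamini-Hochberg adjustment, and intervals were Clopper-Pearson intervals. Scripts ran under Python 3.11.15 on scipy 1.17.1, pandas 2.3.3 and numpy 2.4.6, plots were drawn in matplotlib 3.10.9, and the interval and background steps were tested on simulated data.

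Named regions were the 10 with the largest mean ICM fold among ICM-only regions on chromosomes with a peak in all 3 ICM libraries and none of the other 27, and the 5 non-overlapping 500 kb windows with the most ICM-only regions. The members and lists were chosen with earlier results of these data known. Genic and promoter shares, genes, marker lists, GC content, motifs and sequences were not analysed here, since no genome or annotation of ARS-UCD1.2 was used. Alternatives were stricter peaks, other replicate and overlap rules, autosomes only, equal numbers of the strongest peaks, left-out libraries and a replicate block.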

Additional observations from a re-analysis of the deposited data

How the results depend on the processing

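The 10 held-out and TBE comparisons were each recomputed under 9 alternatives that can move a value, and direction changed in 3 of these 90 values: the 8-cell TBE difference with peaks of a fold of at least 3 (−1.57 points), and the 2-cell TBE difference with peaks of a −log10 q of at least 3 (−0.0169 points) and without replicate 2 (range over left-out replicates −0.0177 to 0.269 points). The causes were not tested. No exact permutation test of 3 against 3 libraries could give less than p = 0.1, so unchanged direction says little about stability. With equal numbers of the strongest peaks 8-cell TBE exceeded controls without overlap (15.8%, 39.3% and 9.22% against 4.87%, 4.61% and 5.30%, exact permutation p = 0.1), but the TBE lists were kept whole there and only the control lists were shortened.

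The number of ICM-only regions was 29856 with peaks of any replicate, 7268 with peaks of all 3, and 7072 with peaks of a −log10 q of at least 3. It was 16069 when a shared region had to cover 50% of the ICM region, 9576 with equal numbers of the strongest peaks (26.4% of 36211 ICM regions, where 13.1% were ICM-only with all peaks), and 7531 to 11126 without replicate 1, 2 or 3 of every stage. Chosen after seeing the data, absence from every peak of the other 18 control libraries gave 4915, of all 27 other libraries 3731, and leaving out single libraries gave from 4075 (without ICM replicate 3), 5683 (without ICM replicate 2) and 8160 (without ICM replicate 1) up to 15941 (without morula replicate 2). The median length was 420 bp with a −log10 q of at least 3, 426 bp with a fold of at least 3, 296 bp with any replicate, 545 bp with all 3 replicates, 648 bp with the 50% overlap (there above the 592 bp of the other ICM regions) and 414 to 459 bp without a replicate. The ICM-only share on X was 16.4% with any replicate, 15.4% with the 50% overlap and 11.1 to 14.2% without a replicate, below autosomes in each. With equal numbers of the strongest peaks, chosen for this share after seeing the data, it was 27.1% against 26.6% on autosomes. With absence from every single peak of the remaining replicates, also chosen after seeing the data, held-out ICM shares were 33.1%, 60.5% and 82.9% and morula shares 4.91%, 41.9% and 11.2% (exact permutation p = 0.2).

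The replicate block, an exact sign-flip test over same-numbered libraries, gave p = 0.25, the smallest that 3 pairs allow, for ICM against ESC, 8-cell, 4-cell, 2-cell and GV libraries, p = 0.5 against morula (24.4 points), p = 0.25 for ICM-only against other ICM regions, and p = 0.75, 0.25 and 0.5 for TBE at the 2-, 4- and 8-cell stages. Control and TBE embryos of a stage shared collections, but no source used here says which numbers share one. Deviations of same-numbered control and TBE libraries correlated between −0.0212 and 0.172. At each of the 3 stages they were positive in replicates 1 and 3 and negative in replicate 2. Between ICM and morula or ESC libraries the correlations ran from −0.0582 to 0.0263. The numbers were not taken to pair samples, and a weak pairing of control and TBE libraries cannot be told from none. Alternatives on genic shares and on windows of 200 or 500 bp for motifs and GC were not run. List length limits every absence named here.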
